A study of Mus musculus with 2 samples.

Results

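The 9 integrin subunits *Itgb1*, *Itga4*, *Itga6*, *Itgam*, *Itgax*, *Itgal*, *Itgb2*, *Itgb5* and *Itgb7*, which are known or proposed partners of tetraspanins, were followed across cell types of the injured mouse thalamus. They were chosen by symbol, and each symbol had 1 row among the 33696 genes of the count matrices. The data were 2 single-cell RNA-seq (scRNA-seq) libraries, 1 for each of the antibodies compared (control Ab and anti-CD9 Ab). All mice were C57B6/J with a cortical brain injury, and both groups received antibody into the thalamus through a cannula (1.0 μg/μl, from day 7 to day 19), the control Ab being normal rat IgG. Live CD45+ cells of the thalamus were pooled over mice and sorted on day 21, so that a difference between the antibodies cannot be told apart from a difference between these pools or libraries. Since each antibody had 1 library, no test could be made, and values are compared by their counting intervals only.

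Integrins are cell surface receptors made of an α and a β chain, which bind matrix proteins or adhesion molecules of other cells and signal in both directions across the membrane. Leukocytes carry the β2 family, in which *Itgb2* (CD18) pairs with *Itgal* (LFA-1), *Itgam* (CD11b, complement receptor 3) or *Itgax* (CD11c). Tetraspanins such as CD9 are membrane proteins that gather integrins into microdomains. *Itga4* pairs with *Itgb1* or *Itgb7* in receptors for VCAM-1 and MAdCAM-1, *Itga6* with *Itgb1* in a laminin receptor, and *Itgb5* with αv in a vitronectin receptor.

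The control Ab library gave 7467 kept cells (24940542 UMIs, median 1880 per cell) and the anti-CD9 Ab library 9162 (22664880 UMIs, median 1419). They formed 26 clusters, 18 of which took the name of 1 of 10 cell types. Integrin, tetraspanin and pathway genes had been left out of the clustering. The libraries shared 54 of their cell barcodes. From here on, paired values are control Ab first and anti-CD9 Ab second, and a log2 ratio is anti-CD9 Ab over control Ab. Microglia-like cells numbered 1934 and 864, T cell-like cells 2812 and 986, macrophage-like cells 204 and 1232, and neutrophil-like cells 65 and 2739. Unnamed clusters held 17.8% and 27.4% of the kept cells. The tissue also gave astrocyte-like (428 and 78) and oligodendrocyte-like cells (306 and 97), although CD45+ cells were sorted. *Cd9*, whose product the antibody binds, was lower with anti-CD9 Ab in microglia-like cells (4097 and 1800 CPM, a gene's UMIs relative to all UMIs of the same cells) and in macrophage-like cells (4180 and 377 CPM), while neutrophil-like cells were at 2590 and 2378 CPM. All 10 microglia markers were also lower in microglia-like cells (13176 and 7756 CPM summed, none at 0). Intervals are 95% Poisson or binomial intervals that cover counting error only.

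The members differed in where they were found (the plot of levels by cell type). *Itgb5* was highest in microglia-like cells in both libraries (971 CPM, 952 to 990, and 1016 CPM, 981 to 1052). *Itgb7* was highest in T cell-like cells (386 and 301 CPM), followed by dendritic cell-like cells (195 and 140 CPM), and microglia-like cells were at 11.1 and 5.48 CPM. *Itgal* was highest in T cell-like cells (312 and 313 CPM), followed by neutrophil-like cells (179 and 260 CPM), whose interval overlapped that of T cell-like cells with control Ab. In both libraries *Itga6* was highest in astrocyte-like (369 and 379 CPM) and then microglia-like cells (317 and 283 CPM), whose intervals overlapped. *Itgam* led in neutrophil-like and microglia-like cells with control Ab (468 and 438 CPM, overlapping intervals), and with anti-CD9 Ab microglia-like cells stood alone (715 CPM) above macrophage-like (438 CPM) and neutrophil-like cells (427 CPM). *Itgax* was highest in microglia-like cells with control Ab (113 CPM, overlapping the 91.2 CPM of dendritic cell-like cells) and in dendritic cell-like cells with anti-CD9 Ab (65.1 CPM). The shared chains *Itgb1* and *Itgb2* were found in all of the larger leukocyte types. *Itgb1* lay between 143 and 227 CPM and *Itgb2* between 143 and 331 CPM in the microglia-, macrophage-, neutrophil-, dendritic- and T cell-like cells of both libraries.

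**Figure D1:**
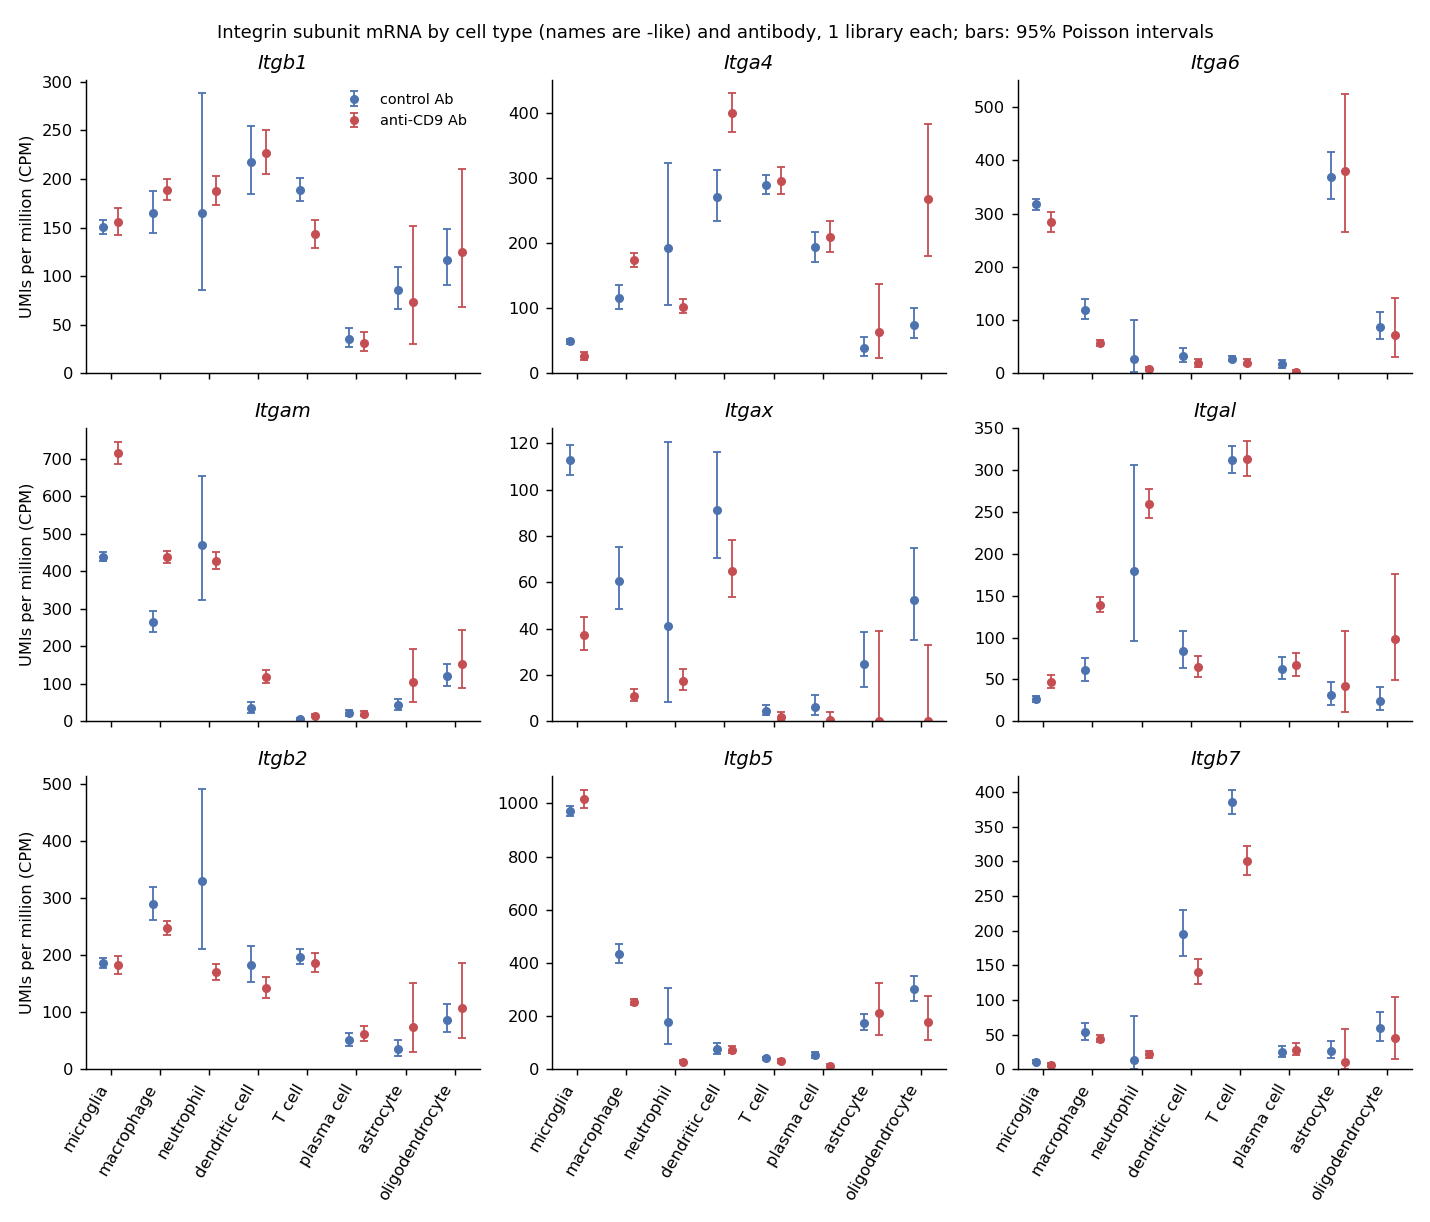
CPM (y axis, from 0) of each member in 8 cell types (x axis) with control Ab (blue) and anti-CD9 Ab (red), 1 library each, with 95% Poisson intervals. *Itgam* is higher and *Itgax* lower with anti-CD9 Ab in microglia and macrophages, *Itgb7* is lower in T cells, and the neutrophil intervals with control Ab are wide because they rest on 65 cells.

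The cells that supplied each subunit also differed between the libraries. Microglia-like cells held 76.5% and 28.8% of the *Itgam* UMIs (6095 and 7702 in all), and in the anti-CD9 Ab library macrophage-like cells held 37.5% and neutrophil-like cells 18.7%. For *Itgax* the microglial share was 74.6% of 1608 UMIs and 28.3% of 410 UMIs, and for *Itgb5* it was 76.4% and 53.1%. T cell-like cells held 59.4% and 24.6% of the *Itgal* UMIs, and 69.5% and 46.3% of the *Itgb7* UMIs. Over the whole kept library, *Itgax* was at 64.5 and 18.1 CPM, *Itga6* at 193 and 73.5 CPM, *Itgb5* at 542 and 262 CPM and *Itgam* at 244 and 340 CPM. In a whole-library level, fewer cells of a type and less RNA per cell cannot be told apart, and the comparisons that follow are within cell types.

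In microglia-like cells, the α chains of the β2 family went in opposite directions while their shared β chain had overlapping intervals. *Itgax*, a gene of damage-associated microglia and dendritic cells, was at 113 CPM (107 to 119) and 37.4 CPM (30.9 to 44.9), a log2 ratio of −1.59 (−1.87 to −1.32). *Itgam*, the CD11b chain that binds the complement fragment iC3b, was at 438 CPM (426 to 451) and 715 CPM (685 to 745), a log2 ratio of 0.71 (0.63 to 0.78). The intervals of the 2 libraries did not overlap for either gene. *Itgb2*, their common partner, was at 186 and 183 CPM (−0.03, −0.17 to 0.10). Of the other chains, *Itgb1* was at 151 and 155 CPM (0.05, −0.10 to 0.19), *Itgb5* was higher by a small margin (0.066, 0.01 to 0.12), and *Itga6* was slightly lower (−0.16, −0.27 to −0.06).

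Of the 9 members, 2 were at least 2-fold lower with anti-CD9 Ab in microglia-like cells (*Itgax* and *Itgb7*) and 0 were 2-fold higher. Most *Itgb7* UMIs of these cells with control Ab came from a sub-cluster rich in predicted doublets with T cell transcripts, as given below. Among all 11122 genes with at least 50 UMIs, 4.37% were 2-fold lower and 3.38% were 2-fold higher. The median log2 ratio of the members was −0.03, beside 0.01 over all genes tested.

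*Itgam* and *Itgax* lie close together in the genome, and their upstream sequences are shown because the genes differed in direction. The 250 bases before each RefSeq start (GRCm38.p6, + strand, 5′ to 3′) were searched for GAGGAA, a sequence recognised by the myeloid factor PU.1, on both strands. Matches are in capitals, and shorter or other forms of the site were not searched. *Itgam* lies at chr7:128062390-128062639 and *Itgax* at chr7:128129300-128129549.
Itgam: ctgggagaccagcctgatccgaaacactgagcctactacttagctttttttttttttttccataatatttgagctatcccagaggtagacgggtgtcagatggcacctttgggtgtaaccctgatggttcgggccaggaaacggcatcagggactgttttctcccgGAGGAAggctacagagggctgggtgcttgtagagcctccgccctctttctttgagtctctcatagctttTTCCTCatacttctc
Itgax: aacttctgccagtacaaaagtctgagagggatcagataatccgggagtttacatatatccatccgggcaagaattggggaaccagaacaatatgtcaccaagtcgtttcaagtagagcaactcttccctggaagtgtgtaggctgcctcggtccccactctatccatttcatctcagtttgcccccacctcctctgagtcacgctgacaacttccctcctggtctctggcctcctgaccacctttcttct
The *Itgam* window held 1 match on the same strand and 1 on the other strand, and the *Itgax* window held none. The motif was in 23.3% of the 32851 RefSeq windows of the same length, and 6 of the 9 members had a window, of which 2 (*Itgb1* and *Itgam*) held it. A match is a string of letters and not a measured binding site, and a link between matches and ratios was not tested.

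The microglial values depended on which cells were counted. Clustered again alone, microglia-like cells fell into 8 sub-clusters, of which 2 were homeostatic-like (787 and 145 cells) and 2 damage-associated-like (624 and 166 cells) by their markers. The homeostatic-like sub-clusters were led by *Igkc*, *Itga9* and *8030442B05Rik*, and by *Ecscr*, *Cst3* and *Ltc4s*. The damage-associated-like ones were led by *Ctnna3*, *Spp1* and *Lpl*, and by the inflammatory genes *Saa3*, *Ccl8* and *Ccl5*. *Itgax* was at 185 CPM (620 UMIs) and 92.0 CPM (51 UMIs) in damage-associated-like cells, a log2 ratio of −1.01 (−1.42 to −0.60), and at 27.0 and 22.7 CPM in homeostatic-like cells (−0.25, −1.28 to 0.77, from 49 and 9 UMIs). *Itgam* was at 350 and 404 CPM in damage-associated-like cells (0.21, from just under 0 to 0.41) and at 573 and 632 CPM in homeostatic-like cells (0.14, −0.06 to 0.34). The homeostatic-like cells were 451 and 136 of the *Igkc*-led sub-cluster and 336 and 9 of the *Ecscr*-led one. The damage-associated-like cells were 586 and 127 of the *Ctnna3*-led sub-cluster and 38 and 39 of the *Saa3*-led one, so that the makeup of both states differed between the libraries. In the *Ctnna3*-led sub-cluster alone, *Itgax* was at 183 and 99.9 CPM (−0.87, −1.29 to −0.45) and macrophage markers summed to 1638 and 1677 CPM. In the *Saa3*-led one *Itgax* had 23 and 3 UMIs (−2.78, −4.51 to −1.04) and macrophage markers summed to 2149 and 8449 CPM. The lower *Itgax* was thus seen inside both damage-associated-like sub-clusters, though in the *Saa3*-led one it rests on 23 and 3 UMIs. In the *Ctnna3*-led one all 10 microglia markers were lower too (13549 and 8349 CPM summed, none at 0). Whether the cells inside it differed between the libraries in ways that bear on *Itgax* was not tested. The *Itgam* ratios of both named states lay below that of all microglia-like cells. Sub-cluster 1, led by *Ccl12*, *Crybb1* and *Cd244a* and left unnamed (317 and 325 cells), had *Itgam* at 515 and 891 CPM (0.79, 0.68 to 0.91) and *Itgax* at 74.0 and 32.3 CPM (−1.20, −1.70 to −0.70). Over the named states alone, *Itgam* was at a log2 ratio of 0.22 and *Itgax* at −1.04. Without integration of the libraries, the microglia-like clusters held 1919 and 237 cells, and the log2 ratio of *Itgam* was 0.13 and that of *Itgax* −0.67. In damage-associated-like cells *Itga6*, the laminin receptor chain, was lower (224 and 148 CPM, −0.60, −0.93 to −0.27), and in homeostatic-like cells it was at 444 and 415 CPM. These *Itga6* values pool both sub-clusters of a state, and the part of the differing makeup was not tested.

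**Figure D2:**
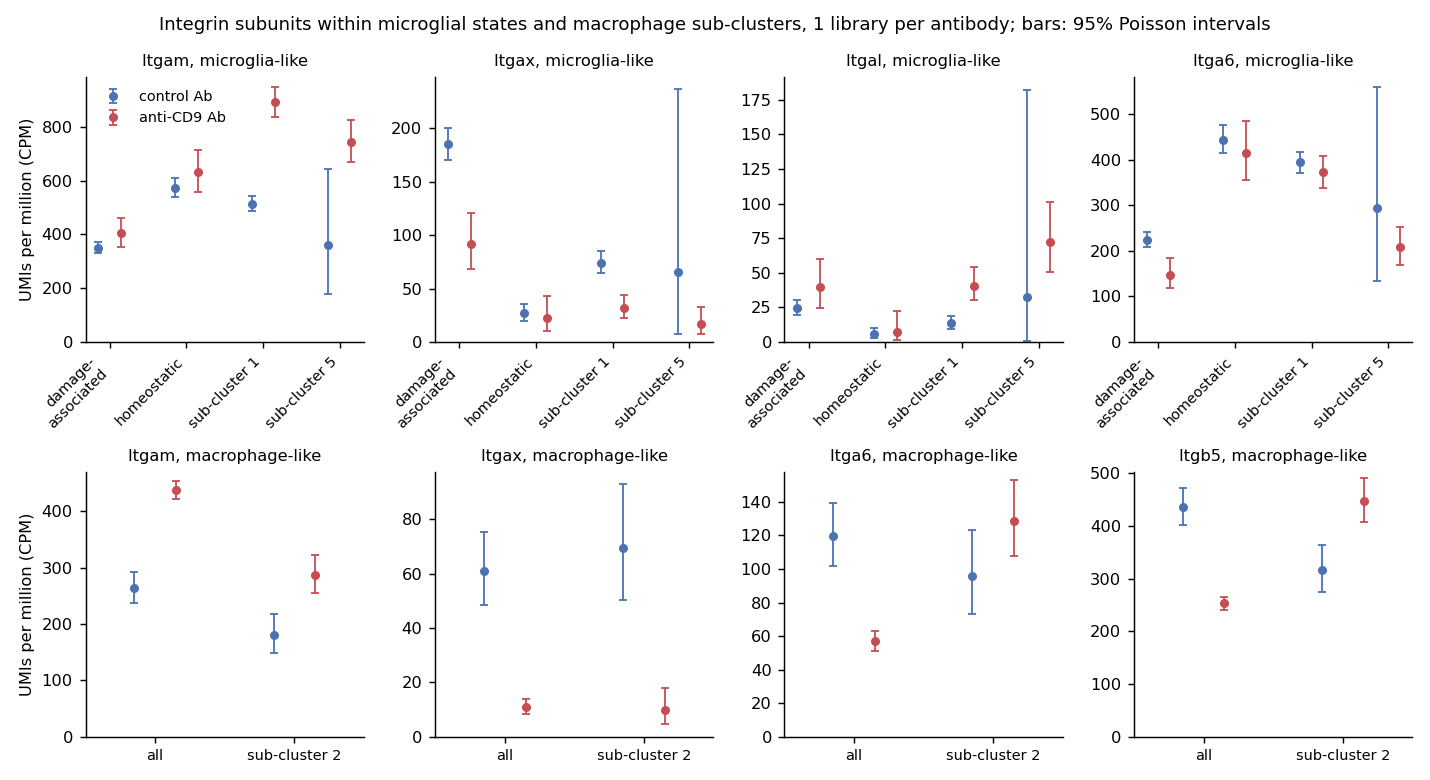
CPM (y axes, from 0) within microglial states and unnamed sub-clusters (top) and in all macrophage-like cells and their sub-cluster 2 (bottom), with control Ab (blue) and anti-CD9 Ab (red) and 95% Poisson intervals. *Itgam* is higher in microglial sub-cluster 1, and in sub-cluster 5, which holds only 7 control Ab cells beside 132 with anti-CD9 Ab. *Itgax* is lower in damage-associated-like cells and in both macrophage panels. *Itgb5* is lower in all macrophage-like cells and higher in sub-cluster 2. *Itga6* is lower in all macrophage-like cells, and in sub-cluster 2 the interval of its ratio spans 0.

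Of the lymphocyte chains at low level in microglia-like cells, *Itgb7* lay mostly with T cell transcripts with control Ab, and *Itga4* only in part. *Itgb7* was at 118 and 17 UMIs and *Itga4* at 48.9 and 26.5 CPM (−0.89, −1.22 to −0.55). Microglial sub-cluster 4 (168 and 19 cells, 69.5% of them predicted doublets, led by *Skap1* and *Cd3g*) held 100 of the 118 *Itgb7* UMIs and 241 of the 520 *Itga4* UMIs with control Ab. All 9 T cell markers were lower with anti-CD9 Ab in microglia-like cells, with a summed level of 209 and 53.5 CPM and none at 0. With predicted doublets left out, *Itgb7* was at a log2 ratio of 0.25 and *Itga4* at −0.66, and over the named states alone *Itga4* was at 0.29. *Itgal*, the LFA-1 chain, was higher in microglia-like cells (26.5 and 47.1 CPM, 0.83, 0.54 to 1.12) and without integration slightly lower (−0.16). In oligodendrocyte-like cells, which should lack *Itgal*, it was at 24.4 and 98.2 CPM (14 and 11 UMIs), and all 9 neutrophil markers were higher in microglia-like cells (503 and 1092 CPM summed, none at 0). The part of T cell and neutrophil RNA in these values was not tested further.

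In macrophage-like cells, *Itgax* was lower, and *Itgal* and *Itgam* were higher. The cluster had 5 of 9 macrophage markers up and also 5 of 7 monocyte markers, and 27.5% of its cells were predicted doublets. *Itgax* was at 60.8 CPM (48.4 to 75.4) and 10.9 CPM (8.55 to 13.8), a log2 ratio of −2.48 (−2.93 to −2.02), and of −3.71 at a clustering resolution of 1.6 (242 and 561 cells). *Itgal* was at 60.8 and 139 CPM (1.19, 0.87 to 1.51), beside 24.4 and 98.2 CPM in oligodendrocyte-like cells, and all 9 neutrophil markers were higher with it (309 and 731 CPM summed, none at 0), whose part was not tested. *Itgam* was at 264 and 438 CPM (0.73, 0.57 to 0.89) and *Itga4*, a chain of the VCAM-1 receptor on monocytes, at 116 and 174 CPM (0.59, 0.35 to 0.83). *Itga6* (119 and 56.9 CPM, −1.07, −1.33 to −0.80) and *Itgb5* (435 and 253 CPM, −0.78, −0.92 to −0.65) were lower. *Itgb1* (0.20, −0.01 to 0.40), *Itgb2* (−0.23, −0.38 to −0.07) and *Itgb7* (−0.29, −0.66 to 0.08) differed less. Of the 9 members, 2 were at least 2-fold lower (*Itgax* and *Itga6*) and 1 was 2-fold higher (*Itgal*), while 6.85% of the 9052 genes tested were 2-fold lower and 7.9% were 2-fold higher. The median log2 ratio was −0.23 for the members and −0.03 for all genes.

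The macrophage-like cells of the libraries were spread unevenly over sub-clusters, so these ratios mix composition with expression. Sub-cluster 2, led by *Spp1*, *Gpnmb* and *Syngr1* with *Fabp5* among its leading genes, was shared by both, with 107 of the 204 and 179 of the 1232 cells. Sub-cluster 0, led by *Nos2*, held 4 and 391 cells. Sub-cluster 1, with *Pf4* among its leading genes, held 11 and 288 cells, and sub-cluster 3, with *Vcan* and *Ccr2*, held 18 and 221 cells. Within sub-cluster 2, *Itgax* was at 69.3 and 9.76 CPM (44 and 10 UMIs, −2.83, −3.82 to −1.84), *Itgam* at 181 and 288 CPM (0.67, 0.36 to 0.98) and *Itgal* at 39.4 and 69.3 CPM (0.82, 0.16 to 1.47). All 9 neutrophil markers were higher in sub-cluster 2 too (120 and 266 CPM summed, *Mmp9* and *Hdc* at 0 with control Ab), and their part in the *Itgal* value was not tested. *Itgax*, *Itgam* and *Itgal* kept their direction in sub-cluster 2. *Itgb5* was instead higher with anti-CD9 Ab in sub-cluster 2 (316 and 447 CPM, 0.50, 0.26 to 0.74), *Itga6* was at 96.0 and 129 CPM (0.42, −0.01 to 0.86), and *Itga4* had overlapping intervals (91.3 and 97.6 CPM, 0.10, −0.37 to 0.56). Sub-cluster 6 (43 and 5 cells) was led by *Plxdc2*, *Nav3*, *Csmd3* and the microglia marker *Sparc*. Over all macrophage-like cells, all 10 microglia markers were lower with anti-CD9 Ab (3817 and 668 CPM summed, none at 0), and in sub-cluster 2 they summed to 2393 and 1212 CPM, with *Tmem119* at 0 with control Ab and *Siglech* and *Sall1* at 0 with anti-CD9 Ab. Their part in the *Itgax*, *Itga6* and *Itgb5* values was not tested.

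**Figure D3:**
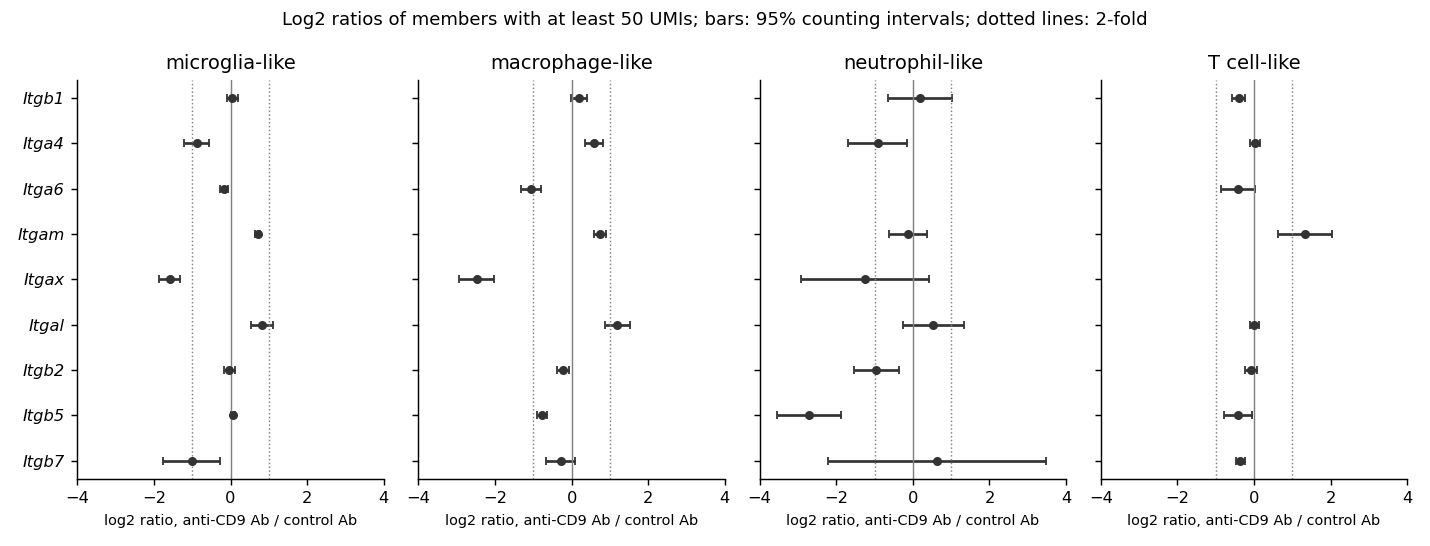
Log2 ratio (x axis, anti-CD9 Ab over control Ab) of each member with at least 50 UMIs in 4 cell types, with 95% intervals from the counting error of both libraries; dotted lines mark 2-fold. *Itgax* is the lowest of the plotted members in microglia and macrophages (−1.59 and −2.48), and the T cell ratios other than that of *Itgam* lie within 2-fold.

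Pooled over T cell-like cells, the chains of the gut-homing receptor α4β7 parted, which did not hold in all subsets, as given below. *Itgb7* was at 386 CPM (369 to 404) and 301 CPM (281 to 322), a log2 ratio of −0.36 (−0.48 to −0.24), while *Itga4* was at 290 and 296 CPM (0.03, −0.10 to 0.15). *Itgb1*, the other partner of *Itga4*, was at 189 and 143 CPM (−0.40, −0.57 to −0.23). The LFA-1 chains *Itgal* (312 and 313 CPM, 0.00, −0.12 to 0.12) and *Itgb2* (197 and 187 CPM, −0.08, −0.23 to 0.07) had overlapping intervals. Of the members, 8 passed 50 UMIs, of which 0 were 2-fold lower and 1 (*Itgam*, from 28 and 40 UMIs) was 2-fold higher, beside 2.56% and 3.38% of the 9737 genes tested. Among the cell types with at least 50 cells, T cell-like cells had the lowest *Itgam* level in both libraries. With *Itgam* (5.73 and 14.4 CPM), 7 of 9 macrophage markers (135 and 395 CPM summed, *Cd163* at 0 in both libraries and *Mrc1* with anti-CD9 Ab) and all 9 neutrophil markers (169 and 270.0 CPM summed) were higher, their part was not tested, and without predicted doublets its log2 ratio was 0.62. *Itgb5* was at 40.7 and 30.6 CPM and *Itga6* at 27.0 and 20.2 CPM, while 8 of 10 microglia markers were lower in the same cells (439 and 183 CPM summed, none at 0), whose part was not tested. The median log2 ratio was −0.22 for the members and −0.09 for all genes.

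The T cell clusters differed in their integrins. With control Ab, *Itgb7* was highest in cluster 8, led by *Il17a*, *Trdc* and *Trgc1* (569 and 362 CPM, −0.65, −0.92 to −0.38). With anti-CD9 Ab, cluster 7, led by *Scart1*, was at a like level (425 and 373 CPM, −0.19, −0.43 to 0.05). *Itgb7* was lower with anti-CD9 Ab in 4 of the 5 clusters, and the interval of the ratio lay below 0 in clusters 0 and 8. In the exception, the cycling cluster 21, it was at 184 and 260 CPM (0.50, from just under 0 to 1.01). *Itga4* was highest in cluster 0, led by *Themis* with *Cd4* among its leading genes (461 and 433 CPM), and in the *Trdc* clusters 7 and 8 it was higher with anti-CD9 Ab (114 and 179 CPM, 0.65, 0.26 to 1.03; 62.4 and 125 CPM, 1.00, 0.45 to 1.55). *Itgb1* was lower in all 5 clusters, with log2 ratios from −1.09 to −0.29, and the interval lay below 0 in clusters 0, 7 and 8. In cells with a *Cd4* UMI and no *Cd8a* or *Cd8b1* UMI (467 and 214 cells), *Itgb7* was at 298 and 242 CPM (−0.30, −0.58 to −0.02) and *Itga4* at 431 and 355 CPM (−0.28, −0.51 to −0.05). The ratios over all T cell-like cells thus mix subsets that differ, and the part of composition was not tested.

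In neutrophil-like cells, the values with control Ab rest on 65 cells, so that only wide differences could be seen. *Itgam*, the Mac-1 chain of neutrophils, was at 468 CPM (34 UMIs, 324 to 655) and 427 CPM (1441 UMIs, 405 to 450), and *Itgal* at 179 and 260 CPM (0.54, −0.25 to 1.33). *Itgb2* was at 331 and 171 CPM (−0.95, −1.54 to −0.36), *Itga4* at 193 and 103 CPM (14 and 346 UMIs, −0.91, −1.68 to −0.14) and *Itgb5* at 179 and 27.3 CPM (13 and 92 UMIs, −2.72, −3.55 to −1.88). All 10 microglia markers moved with *Itgb5* in these cells (1887 and 336 CPM summed, none at 0), and their part was not tested. Of the members, 8 passed 50 UMIs. *Itgb5* and *Itgax* (3 and 59 UMIs, −1.24, −2.91 to 0.43) were 2-fold lower and 0 were 2-fold higher. Of the 5470 genes tested, 22.3% were 2-fold lower and 12.9% were 2-fold higher. Genes without a control Ab UMI were set to 3 counts, which is 41.3 CPM in these cells. Those with few more than 50 UMIs with anti-CD9 Ab then counted as 2-fold lower. The 22.3% can thus hold genes placed there by this floor, and 2 of 8 members cannot be weighed against it. The median log2 ratio was −0.52 for the members and −0.27 for all genes, which can include genes at this floor. The cells were spread differently over 3 clusters: 14, 29 and 22 with control Ab and 1405, 901 and 433 with anti-CD9 Ab.

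In B cell-like cells (33 and 101), 1 member had at least 50 UMIs. *Itga4* was at 299 and 241 CPM (36 and 54 UMIs, −0.31, −0.92 to 0.30), so 0 members were 2-fold lower or higher, beside 4.76% and 9.04% of 1239 genes. In dendritic cell-like cells (129 and 400), *Itgam* was higher (35.1 and 118 CPM, 1.75, 1.15 to 2.35), and within cluster 16, led by *Wdfy4*, *Zfp366* and *Flt3* (111 and 237 cells), it was at 33.9 and 144 CPM (2.09, 1.45 to 2.73). With it, 7 of 9 macrophage markers (1519 and 2725 CPM summed, *Pf4* and *Arg1* at 0 with control Ab) and 8 of 9 neutrophil markers (422 and 825 CPM summed, *Retnlg* and *Cxcr2* at 0 with control Ab) were higher in dendritic cell-like cells, and their part was not tested. *Itga4* was at 271 and 400 CPM over all dendritic cell-like cells (0.56, 0.33 to 0.79) but had overlapping intervals within cluster 16 (214 and 192 CPM) and within cluster 20, led by *Ccr7* and *Fscn1* (836 and 894 CPM), which held 18 and 163 cells. *Itgax*, the defining CD11c chain of these cells, was at 91.2 and 65.1 CPM (−0.49, −0.93 to −0.05), and *Itgb7* at 195 and 140 CPM (−0.48, −0.78 to −0.18). In the same cells 9 of 10 microglia markers (1094 and 439 CPM summed, *Slc2a5* at 0 with anti-CD9 Ab) and 8 of 9 T cell markers (1286 and 428 CPM summed, none at 0) were lower, and their part was not tested. Within cluster 16 both had overlapping intervals (95.6 and 84.9 CPM, and 207 and 180.0 CPM). In plasma cell-like cells (152 and 143), *Itga4* was at 193 and 209 CPM (0.11, −0.12 to 0.35), and *Itgb5* was at 53.1 and 12.3 CPM (79 and 18 UMIs). All 10 microglia markers were lower there too (595 and 110 CPM summed, *Siglech* and *Slc2a5* at 0 with anti-CD9 Ab), and their part was not tested.

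The share of cells with at least 1 UMI gave the same order for *Itgam*, *Itgax* and *Itgb7* when each cell was thinned to 1000 UMIs. *Itgam* was seen in 34.3% (32.2 to 36.5%) of 1892 microglia-like cells and 47.6% (44.2 to 51%) of 845. In T cell-like cells, whose *Itgam* level was low (5.73 and 14.4 CPM), the shares were 0.607% and 1.09%. *Itgax* was seen in 8.14% (6.95 to 9.46%) and 3.79% (2.60 to 5.30%) of microglia-like cells, beside 0.404% and 0.109% of T cell-like cells, and in 3.96% and 0.910% of macrophage-like cells. All of these shares lay above the T cell share of their library, and the *Itgam* shares also lay above the 7.64% (of 157 cells) and 15.6% (of 32 cells) of oligodendrocyte-like cells. For *Itgax* the oligodendrocyte-like shares were 1.91% and 0 of 32 cells. *Itgal* was seen in 1.64% and 4.62% of microglia-like cells and in 5.45% and 12.2% of macrophage-like cells, beside 1.27% and 12.5% of oligodendrocyte-like cells. With anti-CD9 Ab both shares were at or under that of the 32 oligodendrocyte-like cells. Neutrophil markers summed to 4571 CPM in oligodendrocyte-like cells with anti-CD9 Ab, beside 731 CPM in macrophage-like and 1092 CPM in microglia-like cells. This share is thus no like-for-like background, and the part of free RNA in the *Itgal* shares cannot be told. *Itgb7* was seen in 32.3% (30.4 to 34.2%) of 2473 and 25.4% (22.6 to 28.3%) of 914 T cell-like cells, beside 0.846% and 0.710% of microglia-like cells. Without thinning, the *Itgb7* shares were 46.4% and 46.6% at medians of 1555 and 2287 UMIs per T cell-like cell, and the *Itgam* shares in microglia-like cells were 70.4% and 79.4% at medians of 3165 and 3348 UMIs. Thinning left out 42 and 19 microglia-like cells and 339 and 72 T cell-like cells.

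**Figure D4:**
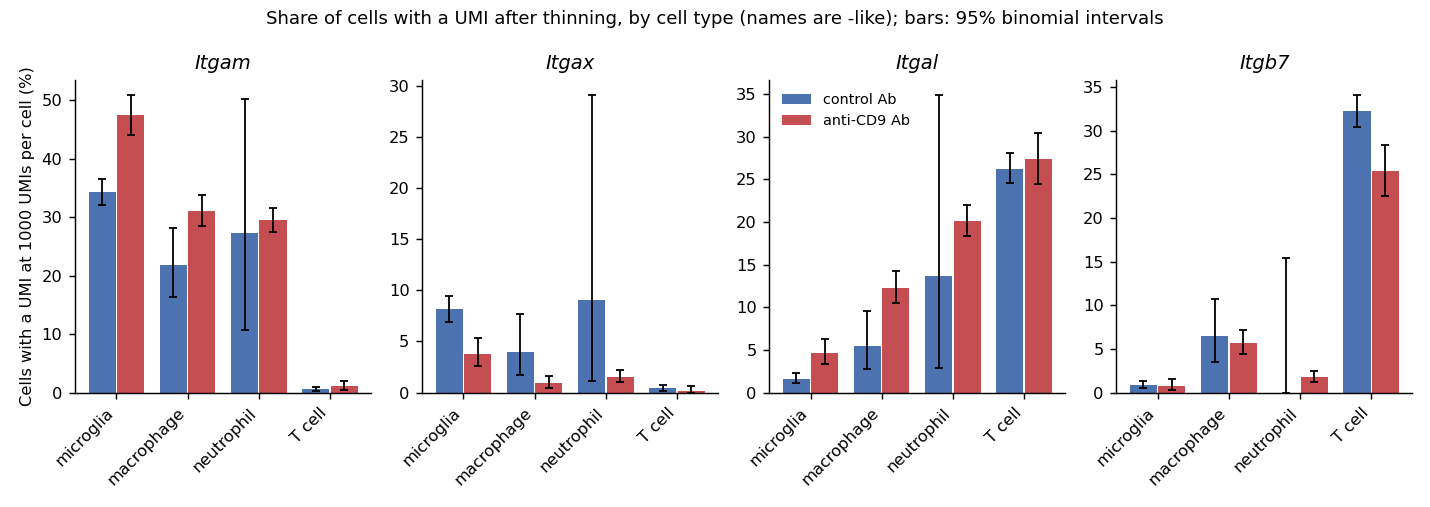
Share of cells with a UMI (y axis, percent, from 0) of *Itgam*, *Itgax*, *Itgal* and *Itgb7* after thinning to 1000 UMIs per cell, in 4 cell types with control Ab (blue) and anti-CD9 Ab (red), with 95% binomial intervals. The *Itgam* share of microglia-like cells goes from 34.3% to 47.6% and the *Itgax* share from 8.14% to 3.79%, while T cell-like cells stay near 0 for both.

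Other genes of integrin adhesion were taken from lists of further subunits, activators and adaptors, inhibitors, ligands and tetraspanins. Over all genes tested in microglia-like cells, 4.37% were 2-fold lower and 3.38% were 2-fold higher. The lists are short, and whether a list differed from the share over all genes was not tested in any cell type. Among 6 further subunits with 50 UMIs in microglia-like cells, 1 was 2-fold lower (*Itga1*, a collagen receptor chain, 64 and 6 UMIs) and 0 were higher. Of 20 activators and adaptors, 2 were 2-fold lower: *Vcl* (vinculin, 18.0 and 8.39 CPM) and *Skap1* (43.9 and 5.81 CPM), a T cell adaptor that also led the doublet-rich sub-cluster 4. Of 4 inhibitors, 0 were past 2-fold. Of 11 ligands, 3 were lower and 2 higher: *Spp1* (osteopontin, log2 ratio −1.98), *Mfge8* (71 and 5 UMIs, −2.05) and *Jam2* (−1.39), against *Vcam1*, the α4β1 ligand (18.1 and 64.8 CPM, 1.84, 1.56 to 2.13), and *Thbs1* (6.02 and 26.8 CPM, 2.15, 1.68 to 2.62). *Spp1* was also a leading gene of the *Ctnna3*-led microglial sub-cluster, which held 586 of the 1934 and 127 of the 864 microglia-like cells. *Thbs1* was at 41.3 and 825 CPM in neutrophil-like cells, and all 9 neutrophil markers were higher in microglia-like cells (503 and 1092 CPM summed). The part of composition and of neutrophil RNA in the ligand ratios was not tested. Of 7 tetraspanins, *Cd9* alone was 2-fold lower (−1.19).

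In macrophage-like cells, 4 further subunits passed the filter, of which the fibronectin receptor chain *Itga5* was higher (30.03 and 83.2 CPM, 1.47, 1.01 to 1.93) and *Itgav*, the partner of *Itgb5*, lower (442 and 141 CPM, −1.64, −1.79 to −1.497). Of 19 activators and adaptors, 2 were lower (*Parvg*, −1.35, and *Skap1*, −1.36) and 0 higher, and 0 of 4 inhibitors were past 2-fold. Over all genes tested in macrophage-like cells, 6.85% were 2-fold lower and 7.9% were 2-fold higher. Of 10 ligands, 3 were higher, namely *Thbs1* (28.6 and 199 CPM, 2.80), *Fn1* (fibronectin, 189 and 607 CPM, 1.68) and *C3* (complement C3, source of the *Itgam* ligand, 123 and 320 CPM, 1.38), and 2 were lower, *Spp1* (−5.12) and *Mfge8* (−2.21). Of 7 tetraspanins, 4 were lower, the lowest being *Cd9* (−3.47), *Cd81* (−3.17) and *Cd63* (−2.47). *Spp1* and *Cd63* were leading genes of macrophage sub-cluster 2 (107 of 204 and 179 of 1232 cells). *Cd81* was a leading gene of sub-cluster 6 (43 and 5 cells). All 10 microglia markers were lower in macrophage-like cells (3817 and 668 CPM summed), and all 9 neutrophil markers were higher (309 and 731 CPM summed). The part of composition, of microglial RNA and of neutrophil RNA in these ratios was not tested. In T cell-like cells, 1 of 7 further subunits (*Itgb3*, 1.02) was 2-fold higher, and 0 of 18 activators and adaptors and 0 of 4 inhibitors were past 2-fold. The shares over all genes tested in T cell-like cells were 2.56% lower and 3.38% higher. *Spp1* (1506 and 140.0 CPM), *Cd9* (175 and 66.7 CPM) and *Cd81* (111 and 38.2 CPM) were lower there. Alongside them, 8 of 10 microglia markers were lower (439 and 183 CPM summed, none at 0), and their part was not tested. In neutrophil-like cells, *Icam1*, the LFA-1 and Mac-1 ligand, had 0 and 2255 UMIs (0 CPM, 0 to 50.8, and 668 CPM, 641 to 697). *Thbs1* was at 41.3 and 825 CPM (3 and 2784 UMIs, log2 ratio 4.32, 2.69 to 5.95). Of the other genes past 2-fold in these cells, *Cyth1* (2 and 518 UMIs, 2.48, 0.47 to 4.48) and *C3* (1.44) were higher, and *Spp1* (−2.76), *Cd81* (−2.78), *Cd63* (−1.48), *Flna* (−1.49), *Fermt3* (−1.30) and *Dok1* (3 and 59 UMIs, −1.24, −2.91 to 0.43) were lower. Such ratios were frequent in neutrophil-like cells, with 22.3% of all genes tested 2-fold lower and 12.9% 2-fold higher. The 22.3% can include genes that were set to 3 counts because they had no control Ab UMI. All 10 microglia markers were also lower in neutrophil-like cells (1887 and 336 CPM summed, none at 0), and their part was not tested. In B cell-like cells, 0 of 10 activators and adaptors were past 2-fold, and *Spp1* (−4.57), *Cd81* (−1.71) and *Cd9* (−1.41) were lower. The shares over all genes tested in B cell-like cells were 4.76% lower and 9.04% higher. All 10 microglia markers were lower in these cells as well (3452 and 598 CPM summed, none at 0), and their part was not tested.

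Over the 18 combinations of cell type and library with at least 50 cells, the genes whose profile of log2(CPM + 20) was most like that of each member were sought among 9355 genes. The closest to *Itgam* were *Fcgr3* (Pearson r = 0.96), *Lpcat2* and *Fcgr4*, those to *Itgb5* were *C1qb* (r = 0.95), *Lhfpl2* and *C1qc*, and those to *Itgal* were *Rac2* (r = 0.90), *Ezr* and *Glrx*. *Itgb7* was closest to *Pkp3* (r = 0.95), *Tespa1* and *Tle5*, *Itga6* to *Abcd2* (r = 0.96) and *Phyhd1*, and *Itgax* to *Gpr137b* (r = 0.91), *Khk* and *Cmtm8*. *Itgb2* was closest to *Vps29* (r = 0.93), *Arrb2* and *Cyba*, *Itgb1* to *Hpcal1* (r = 0.88), *Rassf1* and *Chmp3*, and *Itga4* to *Cyfip2* (r = 0.85), *4930523C07Rik* and *Mndal*. Between members, *Itga6* and *Itgb5* (r = 0.75) and *Itga4* and *Itgb7* (r = 0.68) were most alike, and *Itga4* and *Itga6* (r = −0.78) most unlike. The points share 2 libraries and their free RNA, so these values are descriptions.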

How the data were processed

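The authors made the libraries with 10× Genomics 3′ chemistry and counted UMIs with Cell Ranger (8.0.0 per the file headers and the submitters' processing notes). The deposited values are raw UMI counts for 12245 and 15173 barcodes. The paper and the processing notes name different genome builds, so no coordinates were attached to the counts. RefSeq promoter windows are on GRCm38.p6.

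Cells with 200 to 7500 genes and at most 2% mitochondrial counts were kept. Counts were scaled to 10000 per cell, integrated by anchors (2000 variable genes without the integrin, tetraspanin and pathway genes, 30 dimensions) and clustered at a resolution of 0.8 with Seurat 5.3.0 in R 4.3.3. Later steps used Python 3.11.15. Predicted doublets (731 and 1112 cells) were marked from simulated doublets at 0.8% per 1000 barcodes and kept. A cluster took a name when at least 50% of a type's markers, and at least 3, were up, at most 50% of its cells were predicted doublets and no more than 75% of another type's markers were up. These limits were chosen after seeing the data, as was the reading of macrophage sub-clusters. Sub-clusters used 20 components and a resolution of 0.5.

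UMIs were summed over the cells of a type and library and given as CPM. For medians and 2-fold counts a gene needed 50 UMIs in the 2 libraries together, and in both a gene with no UMI in a library was set to 3 counts. Ratios of single genes, as in sub-clusters, were also given below 50 UMIs where each library had a UMI. The intervals were also run on simulated Poisson counts without variation between cells, mice or libraries. There they held the true ratio for 97.0% of 199 changed genes in microglia-like cells (11121 genes run) and 94.0% of 200 in macrophage-like cells (9052 genes run). Such counts follow the model behind the intervals, so that this checks the computation only. The members and gene lists were chosen with earlier results of these data known. Named genes were the 9 members, from each list at most the 3 highest and 3 lowest genes past 2-fold in each of microglia-like, macrophage-like, neutrophil-like, T cell-like and B cell-like cells, *Cd9*, and the 3 genes most like each member. One gene that this rule names is not reported here.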

Additional observations from a re-analysis of the deposited data

Results flagged for a closer look

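*Itga4* went opposite ways in different cell types, with a log2 ratio of 0.59 in macrophage-like cells and −0.91 in neutrophil-like cells, beside −0.89 in microglia-like cells. *Itgb5* was at 0.066 in microglia-like cells and −2.72 in neutrophil-like cells. In each pair the intervals of both ratios lay on opposite sides of 0. With 1 library per antibody the differences between cell types were not tested, and the neutrophil-like values rest on 65 cells with control Ab. Within macrophage sub-cluster 2, *Itga4* had overlapping intervals. Its ratio in microglia-like cells turned direction without integration and over the named states alone. All 10 microglia markers were lower with *Itgb5* in neutrophil-like cells (1887 and 336 CPM summed), and their part was not tested.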

How the results depend on the processing

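No paired analysis was possible because each antibody had 1 library, and no replicate could be left out. Of the recomputed median log2 ratios of the members, 32 stayed within the interval of the reported value, 7 moved beyond it and 1 turned direction (counted only where the interval of the reported value lay on 1 side of 0). In macrophage-like cells it was −0.061 at a resolution of 1.6, −0.014 with at least 200 UMIs and 0.28 within the sub-cluster with the most control Ab cells, where the direction turned. In microglia-like cells it was 0.14 over the named states alone, against −0.03, whose interval spans 0. Both of these choices were made after seeing the data. In T cell-like cells the median was −0.36 with no filter. In B cell-like cells it was −0.95 without integration, −1.20 without predicted doublets and −1.01 with no filter. Of the recomputed ratios of single members, 188 stayed within their interval, 24 moved beyond it and 7 turned direction. Of the recomputed shares, 64 stayed, 25 moved and 1 turned. In microglia-like cells the ratios that turned were *Itga4* (0.089) and *Itgal* (−0.16) without integration, *Itgb7* without predicted doublets (0.25), and *Itga4* (0.29) and *Itgb7* (1.27) over the named states alone. The *Itgb7* values rest on few counts, as all microglia-like cells held 118 and 17 of its UMIs. In macrophage-like cells, *Itga6* (0.42, with an interval that spans 0) and *Itgb5* (0.50) turned within the sub-cluster. The *Itgb7* share of T cell-like cells differed by 0.14 percentage points without thinning and by −6.89 with it, the depth per cell being higher with anti-CD9 Ab. Other causes were not tested. The ratio of *Itgax* stayed negative in microglia-like (−1.61 to −0.67) and macrophage-like cells (−3.71, at a resolution of 1.6, to −2.44) under every alternative that gave a value. The cluster of macrophage-like cells was not named without integration, and no member had 200 UMIs in B cell-like cells, so these alternatives gave no value. Depth limits the neutrophil-like and B cell-like comparisons, with 65 and 33 cells with control Ab.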

Other observations

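The unnamed cluster led by *Gzma*, *Nkg7* and *Cd8b1* (409 and 166 cells, control Ab first as above) carried all 8 natural killer cell markers and all 9 T cell markers up. *Itgb1* was at 595 and 437 CPM there and *Itga4* at 454 and 526 CPM. In its cells with a *Cd8a* or *Cd8b1* UMI and no *Cd4* UMI (236 and 50), *Itgb1* was at 516 and 299 CPM (log2 ratio −0.79, −1.26 to −0.31), *Itga4* at 559 and 569 CPM and *Itgal* at 294 and 292 CPM. In its remaining cells without such a call (170 and 113), *Itga4* was at 289 and 505 CPM (0.81, 0.42 to 1.19) and *Itgal* at 197 and 299 CPM (0.60, 0.12 to 1.09). The cluster led by *Gdf15* and *Hilpda* held 1 and 761 cells, the 761 having *Itgb1* at 296 CPM, *Itgam* at 176 CPM and *Itgal* at 102 CPM. The cycling cluster with 4 of 10 microglia markers up (62 and 52 cells) had *Itgax* at 99.1 and 12.4 CPM and *Itgam* at 293 and 461 CPM. A shallow cluster with 2 of 10 microglia markers up (339 and 207 cells, median 806 UMIs) had *Itgax* at 55.0 and 15.7 CPM and *Itgam* at 508 and 791 CPM.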
